A study of Homo sapiens with 6 samples.

Results

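Long noncoding RNAs are transcripts that act without being translated into a protein. Some build nuclear bodies, some recruit chromatin enzymes to a locus, and some bind proteins or microRNAs in the cytoplasm. Many were first named in tumours, where their levels are often raised, and in colorectal cancer UCA1, CCAT1, H19 and MALAT1 are among those most studied. The account below covers 9 of them, namely UCA1, MALAT1, NEAT1, H19, PVT1, CCAT1, CYTOR, TUG1 and KCNQ1OT1. They were chosen by gene symbol with the si-STRIP2 against si-NC values already known, so the changes of these 9 genes are given as a description and support nothing. Of the 61806 genes in the deposited table, 8 rows carried 1 of these symbols. CCAT1 had no row under that symbol and was not analysed here. Of the 8, 7 passed the filter on low counts and were among the 15687 genes tested. H19 did not pass.

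The cells were HCT116, a human colorectal carcinoma line, and the question was which transcripts differ after knockdown of STRIP2, which belongs to STRIPAK, an assembly of a phosphatase with kinases. The 3 control libraries (si-NC) came from wild-type HCT116 given control short interfering RNA. The 3 si-STRIP2 libraries came from the same line given short interfering RNA against STRIP2. The sample titles do not say whether those 3 received the same sequence. All 6 came from 1 line grown in the same medium, and RNA was selected by its poly(A) tail with oligo(dT) beads before a directional library kit. The labels number the libraries but do not say that they came from separate cultures, so the spread and the p-values may measure only technical variation.

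STRIP2 itself stood at 3.19, 3.77 and 3.81 FPKM (fragments scaled by exonic length and by library total) in si-NC and at 2.71, 2.53 and 2.58 FPKM in si-STRIP2. Its mean was 72.6% of the control mean, and the groups did not overlap. LCN2, the lipocalin gene in the title of the series, changed by -3.87 on the log2 scale (SE 0.185, edgeR quasi-likelihood test, adjusted p = 2.70e-18). The libraries held 17184963 to 21721218 counts, and mitochondrial genes took 4.88 to 8.88% of them, with the highest share in si-NC 3 (95% Wilson interval 8.87 to 8.90%, for counting error only). Of 11 colorectal epithelial markers 7 stood at 5 FPKM or more in every library, whereas VIL1 and CDX1 had at most 3 counts in any library. The 4 leukocyte markers reached at most 0.11 FPKM and the 3 endothelial markers at most 0.08 FPKM. Of 5 fibroblast markers, COL1A1 stood at 1.89 to 2.55 FPKM, and COL1A2 and DCN had at most 3 counts in any library.

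In the control cells UCA1, NEAT1 and TUG1 were the abundant members, at group means of 27.0, 21.8 and 18.2 FPKM. MALAT1, PVT1 and CYTOR stood about an order of magnitude lower, at 2.32, 1.61 and 1.42 FPKM. H19 and KCNQ1OT1 were close to the limit of detection, at 0.137 and 0.0200 FPKM. The ranges of UCA1 and NEAT1 overlapped, as did those of NEAT1 and TUG1, and the ranges of each further neighbouring pair did not overlap. In si-STRIP2 the order was NEAT1, TUG1, UCA1, MALAT1, PVT1, CYTOR, H19 and KCNQ1OT1, with no overlap between neighbours in that order. For UCA1 and MALAT1 this was a near tie, as the lowest UCA1 value was 8.88 FPKM and the highest MALAT1 value 8.86 FPKM. By FPKM, UCA1 thus led the 8 in si-NC but stood below NEAT1 and TUG1 in si-STRIP2. FPKM divides by exonic length, which was 4154 bases for UCA1, 10151 for TUG1 and 22767 for NEAT1. In counts summed over the si-NC libraries, NEAT1 (27715) and TUG1 (10351) stood above UCA1 (6298). Likewise CYTOR (1423) stood above MALAT1 (1135), and KCNQ1OT1 (98) above H19 (22). The order between genes therefore depends on these lengths, and the isoforms present were not known.

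**Figure D1:**
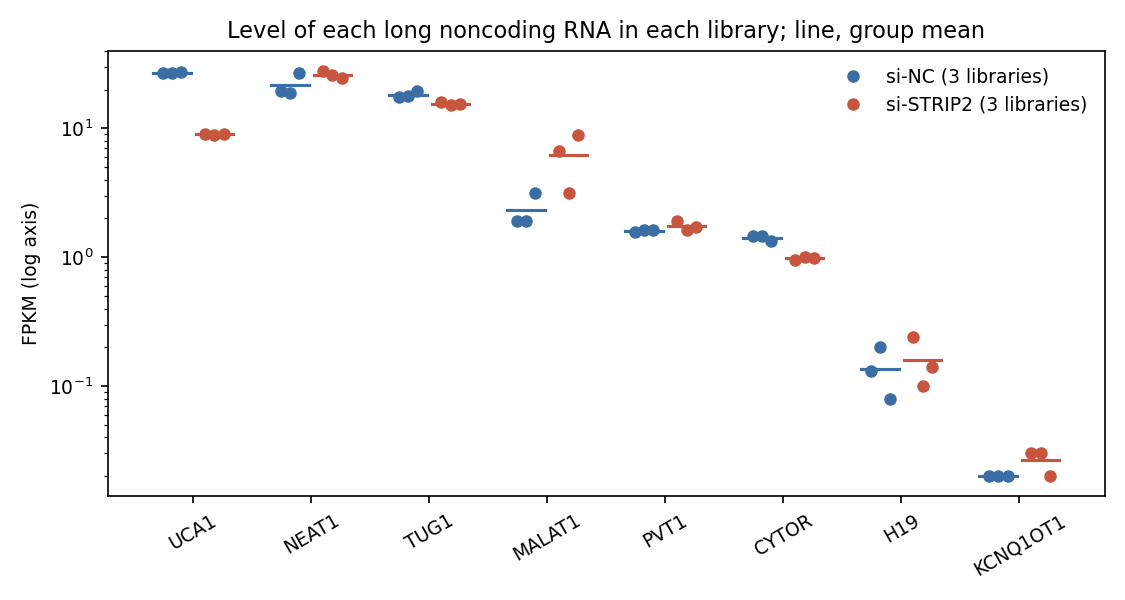
FPKM (log axis) of the 8 members with a row, 1 point per library and a line at each group mean, with si-NC in blue and si-STRIP2 in red. UCA1 lies at 26.7 to 27.2 FPKM in si-NC and at 8.88 to 9.04 FPKM in si-STRIP2, while the points of NEAT1, MALAT1, H19 and KCNQ1OT1 (deposited to 2 decimals) overlap between the groups.

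The fit over all genes called all 7 tested members at an adjusted p under 0.05. UCA1, TUG1 and CYTOR were lower in si-STRIP2, and MALAT1, NEAT1, PVT1 and KCNQ1OT1 were higher. The same fit called 54.8% of all genes tested, 27.0% as lower and 27.8% as higher, and it called 35.5% of the 1712 long noncoding genes tested. In counts divided by the library total, the groups did not overlap for 5 of the 7 tested members, against 59.3% of all genes. Because the members were picked with this contrast known, nothing is read from these counts. In bulk RNA, fewer cells carrying a transcript and less of it per cell cannot be told apart.

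UCA1 (ENSG00000214049), named for urothelial carcinoma, is a mainly cytoplasmic RNA studied for its part in proliferation and drug resistance of carcinoma cells. It lies on the plus strand of chromosome 19 at 15828206 to 15836328 (GRCh38).

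UCA1 stood at 26.7, 27.1 and 27.2 FPKM in the si-NC libraries and at 9.04, 8.88 and 9.0 FPKM in the si-STRIP2 libraries. The libraries of each group were nearly level with one another, and every si-STRIP2 library was far below every si-NC library. The means were 27.0 ± 0.263 FPKM (SD, n = 3) and 8.97 ± 0.0833 FPKM (SD, n = 3), which puts si-STRIP2 at 33.2% of si-NC. The counts behind these values were 2408, 1951 and 1939 in si-NC and 705, 645 and 644 in si-STRIP2. The fitted log2 fold change was -1.59 (SE 0.0461, 95% interval -1.68 to -1.50), a level 3.01-fold lower. Over the 14 alternative fits it lay between -1.60 and -1.49.

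Among all tested genes, UCA1 ranked 1512 of 15687 by its mean FPKM in si-NC, and 9 of 1712 among long noncoding genes. Of the genes called at an adjusted p under 0.05, 123 had a more negative fitted change, of which 26 were long noncoding. The SD of its log2 level within groups was 0.0126, which placed it at percentile 0.399 among the 500 genes nearest in level. Its counts carry counting error of their own, so a spread this low in so few libraries is not given as a trait of UCA1. Genes that overlap UCA1 held 0.422% as many counts as UCA1.

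The 5 genes whose profile over the 6 libraries was most like that of UCA1 were AREG, SERPINB8, SLC30A1, CCPG1 and ATP2C2. Likeness was the root mean square difference of centred log2 counts scaled to the library total, and 11302 genes with a symbol and a mean of at least 1 FPKM were candidates. AREG encodes amphiregulin, a ligand of the EGF receptor, and had the smallest difference, 0.0494. Its level fell from 686.7 ± 27.6 to 236.2 ± 3.44 FPKM (SD, n = 3 each). SERPINB8, a serine protease inhibitor, followed at a difference of 0.0638, and SLC30A1, a zinc exporter, at 0.0653. CCPG1, a receptor for autophagy of the endoplasmic reticulum, stood at 0.0711 and ATP2C2, a Golgi calcium pump, at 0.0752. Their fitted log2 fold changes ran from -1.70 for SERPINB8 to -1.49 for SLC30A1. These genes were picked by their likeness in the same libraries, and the measure carries no test.

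The tested genes within 100 kb of UCA1 were also called lower. CYP4F2, a fatty acid hydroxylase and the nearest protein-coding gene on the higher-coordinate side, lies 41695 bases away and fell by 0.76 on the log2 scale (SE 0.318, edgeR, adjusted p = 0.0411). It was a weakly expressed gene, with 26, 17 and 30 counts in si-NC and 18, 15 and 8 in si-STRIP2. OR10H1, an olfactory receptor gene 12542 bases to the lower-coordinate side, held at most 14 counts in a library and was not tested. Within 100 kb of UCA1, 4 genes were tested and all 4 were called lower, against 27.0% of all genes tested. The other 3 were looked up after their values were seen. CYP4F11, a relative of CYP4F2, went from 6.45 ± 0.339 to 2.59 ± 0.0874 FPKM (SD, n = 3 each), a log2 fold change of -1.32 (SE 0.0847, edgeR, adjusted p = 4.98e-15). The pseudogene CLEC4OP, 9934 bases from UCA1, fell by 1.10 (SE 0.144, edgeR, adjusted p = 6.43e-08), and the pseudogene ENSG00000267056 fell by 1.60 (SE 0.191, edgeR, adjusted p = 9.80e-09).

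**Figure D2:**
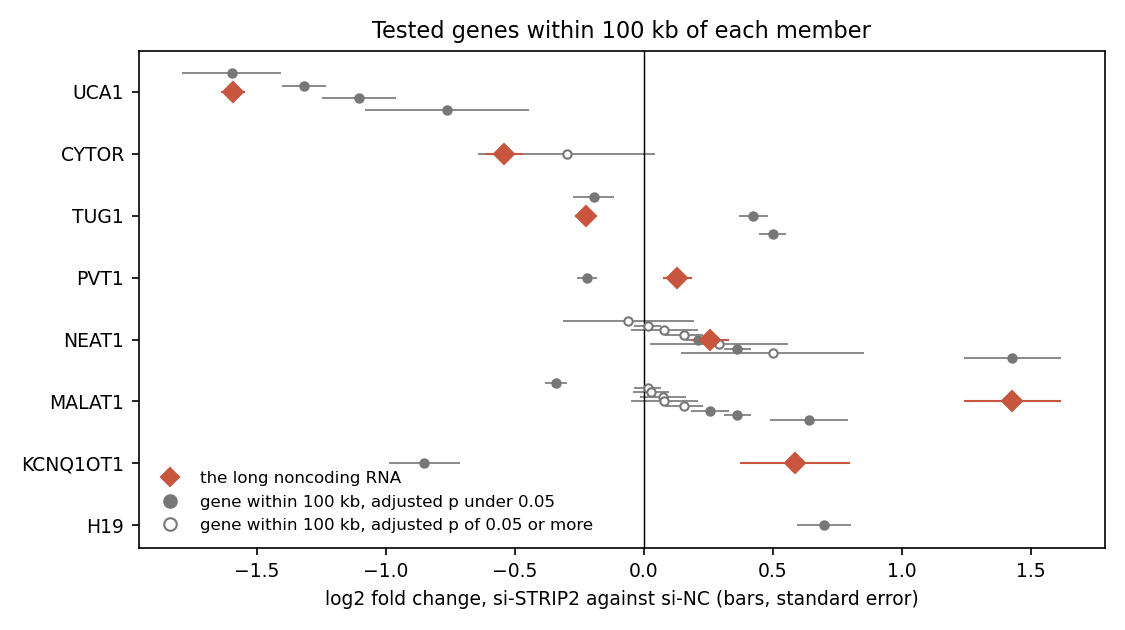
Log2 fold change (si-STRIP2 against si-NC, bars 1 standard error) of each tested member (red diamonds) and of every tested gene within 100 kb of it (grey points, filled where the adjusted p was under 0.05). The 4 genes near UCA1 lie between -1.60 and -0.76, while the genes near NEAT1, MALAT1 and TUG1 lie on both sides of 0.

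CYTOR (ENSG00000222041), also known as LINC00152, is a cytoplasmic RNA linked to growth and cytoskeletal signalling in carcinoma cells. It spans chromosome 2 from 87454781 to 87636740 on the plus strand. CYTOR stood at 1.45, 1.47 and 1.34 FPKM in si-NC and at 0.95, 1.01 and 0.980 FPKM in si-STRIP2. Every si-STRIP2 library was lower than every si-NC library. The means were 1.42 ± 0.0700 and 0.980 ± 0.0300 FPKM (SD, n = 3 each), or 69.0% of control. The fitted log2 fold change was -0.54 (SE 0.0743), and it lay between -0.58 and -0.29 in the alternatives, with the call kept in all 14. The smallest value came from log2(FPKM + 1), a scale that understates changes of genes near 1 FPKM.

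CYTOR has a near copy on the same chromosome, MIR4435-2HG, and reads from the stretches they share cannot be assigned with certainty. Of the 50-base words in CYTOR transcripts, 24.4% also occur in transcripts of another gene, 16% in those of MIR4435-2HG. For UCA1, MALAT1, NEAT1, H19, TUG1 and KCNQ1OT1 the share with any other gene was at most 4.2%. Over 514 aligned bases, CYTOR-201 and MIR4435-2HG-203 were 99.03% identical, with 1 gap and the substitutions T215C, C277T, G293T, C374T and A478G (the CYTOR-201 base, its position from the 5′ end of CYTOR-201, the copy's base). The stretch that holds 3 of these 5 differences is printed to show how few bases tell the genes apart. It runs over positions 275 to 374 of CYTOR-201, in exon 2 at chr2:87521264-87521363 on the plus strand, and in the copy over chr2:111429464-111429563 on the minus strand. Capitals mark the bases that differ.
CYTOR-201: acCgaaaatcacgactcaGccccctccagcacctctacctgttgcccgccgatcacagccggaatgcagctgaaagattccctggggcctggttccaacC
MIR4435-2HG-203: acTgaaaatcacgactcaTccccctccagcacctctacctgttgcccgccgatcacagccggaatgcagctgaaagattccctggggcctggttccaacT

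The copy did not pass the test. MIR4435-2HG had means of 0.677 ± 0.0551 FPKM for si-NC and 0.627 ± 0.0153 FPKM for si-STRIP2 (SD, n = 3 each), with a log2 fold change of -0.12 (SE 0.0746, edgeR, adjusted p = 0.161). The difference between the changes of CYTOR and MIR4435-2HG was not tested. Genes that overlap CYTOR held 4.72% as many counts as CYTOR. Its nearest protein-coding genes, PLGLB1 and PLGLB2, held at most 12 counts in a library and were not tested. The 1 tested gene within 100 kb, the overlapping transcript ENSG00000284879, had a log2 fold change of -0.30 (SE 0.344, edgeR, adjusted p = 0.479).

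Promoter windows from RefSeq (GRCh38.p14), reaching from 250 bases before to 50 bases after the annotated start, were at hand for 4 of the 9 members, with 2 windows for MALAT1. They were searched on both strands for the letters of 9 motifs: AP-1 (TGANTCA), TEAD (CATTCC), C/EBP (TTGCNNAA), E-box (CACGTG), HIF (ACGTG), ETS (CCGGAA), SP (GGGCGG), E2F (GCGGGAA) and the CCAAT box (CCAAT). A match is a description of the sequence and not evidence of binding, and a window without a match says nothing about a factor. The CYTOR window, chr2:87455177-87455476 on the plus strand, is printed because it holds 2 AP-1 matches, at -19 and -9 from the RefSeq start, in capitals. That start is an internal one for the gene as counted, which begins at 87454781, so the whole window lies within the counted gene. At least 1 such match was present in 7.71% of the 35116 promoter windows of the table.
CYTOR promoter: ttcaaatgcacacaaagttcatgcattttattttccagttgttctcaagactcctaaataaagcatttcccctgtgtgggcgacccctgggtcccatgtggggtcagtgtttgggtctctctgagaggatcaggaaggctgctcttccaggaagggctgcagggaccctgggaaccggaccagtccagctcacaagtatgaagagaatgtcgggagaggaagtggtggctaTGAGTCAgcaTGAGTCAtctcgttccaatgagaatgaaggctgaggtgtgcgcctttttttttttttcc

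Of 39 genes listed for factors that bind these motifs or act with them, 23 were lower, 7 were higher and 9 were not called. The share called was 76.9%, against 54.8% of all genes tested. Their median log2 fold change was -0.34 against 0.014 over all genes. The AP-1 subunits FOSB, JUN and FOS fell the most. FOSB went from 3.03 ± 0.484 to 0.340 ± 0.0300 FPKM, JUN from 14.8 ± 0.786 to 2.42 ± 0.454 FPKM, and FOS from 22.1 ± 3.49 to 5.47 ± 0.690 FPKM (SD, n = 3 each). The fourth of the falls was ETS1, from 2.97 ± 0.231 to 1.34 ± 0.127 FPKM (SD, n = 3 each). Rises were led by TEAD4, from 4.16 ± 0.378 to 5.62 ± 0.155 FPKM, and by the AP-1 subunit FOSL1, from 20.8 ± 1.00 to 27.7 ± 0.366 FPKM (SD, n = 3 each). TEAD2 and E2F1 rose by 0.31 and 0.26 on the log2 scale. Whether any of these factors binds at CYTOR in these cells was not tested.

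TUG1 (ENSG00000253352), first described as an RNA raised by taurine in the retina, is known to associate with chromatin regulators and to have nuclear and cytoplasmic forms. It lies on the plus strand of chromosome 22 at 30969245 to 30979395. TUG1 stood at 17.5, 17.7 and 19.4 FPKM in si-NC and at 16.1, 15.3 and 15.4 FPKM in si-STRIP2. All 3 si-STRIP2 libraries were lower than all 3 si-NC libraries, by a gap smaller than the range of the controls. The means were 18.2 ± 1.04 and 15.6 ± 0.460 FPKM (SD, n = 3 each), or 85.7% of control. The log2 fold change was -0.22 (SE 0.0429) and lay between -0.25 and -0.18 in the 14 alternatives, with the call kept in each. None of the 6 genes annotated within TUG1 held a count.

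GENCODE classes TUG1 as an RNA from a bidirectional promoter. MORC2, a chromatin ATPase gene on the opposite strand, begins 471 bases away, and the window printed here covers the TUG1 start and part of the stretch between the genes (chr22:30969015-30969314, plus strand). Capitals mark an E-box at -77, present in 7.26% of all windows, 4 SP matches, a motif in 45.0%, and 2 CCAAT boxes, a motif in 34.6%. The E-box also contains the HIF letters on both strands, a motif that 21.4% of windows hold.
TUG1 promoter: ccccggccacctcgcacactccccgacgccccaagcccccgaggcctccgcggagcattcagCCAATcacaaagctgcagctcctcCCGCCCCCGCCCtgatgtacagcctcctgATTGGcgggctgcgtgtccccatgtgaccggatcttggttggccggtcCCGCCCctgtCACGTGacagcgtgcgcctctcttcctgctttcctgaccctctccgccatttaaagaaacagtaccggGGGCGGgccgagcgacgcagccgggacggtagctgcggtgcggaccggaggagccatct

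The partner on the other strand went the opposite way. MORC2 rose from 3.62 ± 0.0557 to 5.13 ± 0.0961 FPKM (SD, n = 3 each), a log2 fold change of 0.50 (SE 0.0511, edgeR, adjusted p = 3.45e-10). SMTN, a smooth muscle and cytoskeletal protein gene 84710 bases to the other side, rose by 0.43 (SE 0.0553, edgeR, adjusted p = 5.63e-08). OSBP2, an oxysterol-binding protein gene 61421 bases away that was looked up after its values were seen, fell by 0.19 (SE 0.0790, edgeR, adjusted p = 0.0372).

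NEAT1 and MALAT1 are nuclear RNAs made from neighbouring genes on chromosome 11, at 65422774 to 65445540 and 65497688 to 65506516 on the plus strand. NEAT1 is the scaffold of paraspeckles, a role of its long isoform, and MALAT1 gathers at nuclear speckles, which are rich in splicing factors. The long NEAT1 isoform and mature MALAT1 are cut at their 3′ ends by RNase P and end in an A-rich tract encoded in the genome, in place of a poly(A) tail. The annotated ends are printed because these libraries were selected by poly(A). The sequence is from GENCODE 29, with AATAAA, the signal for a poly(A) tail, and runs of 5 or more A in capitals, and the ends lie at chr11:65426454-65426513 (NEAT1-208), chr11:65445481-65445540 (NEAT1-202), chr11:65506410-65506469 (MALAT1-202) and chr11:65506457-65506516 (MALAT1-209), all on the plus strand.
NEAT1-208: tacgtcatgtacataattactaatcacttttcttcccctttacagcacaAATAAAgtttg
NEAT1-202: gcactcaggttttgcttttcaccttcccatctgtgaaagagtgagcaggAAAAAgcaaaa
MALAT1-202: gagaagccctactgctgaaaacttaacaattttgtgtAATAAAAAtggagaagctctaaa
MALAT1-209: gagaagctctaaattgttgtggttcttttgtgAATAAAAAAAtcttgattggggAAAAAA

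The short isoform, NEAT1-208 of 2994 bases, has AATAAA near its end, and the long NEAT1-202 of 22743 bases has none in its last 60 bases. Both MALAT1-202 and MALAT1-209 have AATAAA in their last 60 bases. These MALAT1 ends are annotated transcript ends and are not given here as the end cut by RNase P. The deposited table gives 1 count per gene, so the isoforms could not be told apart. How far oligo(dT) beads captured each form was not tested.

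NEAT1 (ENSG00000245532) stood at 19.7, 18.8 and 27.1 FPKM in si-NC and at 27.9, 26.2 and 24.4 FPKM in si-STRIP2. The control library si-NC 3 was as high as the si-STRIP2 libraries, so the groups overlapped. The means were 21.8 ± 4.55 and 26.2 ± 1.74 FPKM (SD, n = 3 each), and the fitted log2 fold change was 0.26 (SE 0.0732, 95% interval 0.11 to 0.40). Its spread within groups stood at percentile 96.7 among the 500 genes nearest in level. The call rested on single libraries and on the tool. Without si-NC 3 the change was 0.44, without si-NC 2 it was 0.15, and without si-NC 1 it was 0.19 with the call lost (edgeR, adjusted p = 0.0613). DESeq2 gave an adjusted p of 0.261, against 0.00343 with edgeR.

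MALAT1 (ENSG00000251562) stood at 1.90, 1.91 and 3.15 FPKM in si-NC and at 6.62, 3.14 and 8.86 FPKM in si-STRIP2. The highest control, si-NC 3, matched the lowest knockdown library, si-STRIP2 2, while the other si-STRIP2 libraries stood well above all controls. The means were 2.32 ± 0.719 and 6.21 ± 2.88 FPKM (SD, n = 3 each), or 268% of control, from 365, 292 and 478 counts against 1098, 484 and 1347. The log2 fold change was 1.43 (SE 0.188, 95% interval 1.06 to 1.80), and 70 of the called genes had a larger positive change. Its spread within groups stood at percentile 99.8 among the 500 genes nearest in level. The call was kept in all 14 alternatives, from 1.05 to 1.75. Without si-NC 3 the change was 1.70, and without si-STRIP2 2 it was 1.75.

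The library si-NC 3, which held the highest control level of both RNAs, also had the highest mitochondrial share. Between the groups this went the other way, with a mean share of 7.01% in si-NC and 6.00% in si-STRIP2, where both RNAs had the higher mean. Within si-STRIP2, the library with the highest share, si-STRIP2 3 at 6.30%, had the lowest NEAT1 level and the highest MALAT1 level. Small nuclear and nucleolar RNAs, which also lack poly(A) tails, took 0.00456% ± 0.000421 of the si-NC counts and 0.00565% ± 0.000690 of the si-STRIP2 counts (SD, n = 3 each). Replication-dependent histone mRNAs, another class without poly(A) tails, went the other way, at 0.0162% ± 0.00131 and 0.0125% ± 0.000435 (SD, n = 3 each). The part of RNA quality or of poly(A) selection in the NEAT1 and MALAT1 values was not tested. With a mean of 2.32 FPKM in si-NC, MALAT1 ranked 9367 of 15687 genes and 236 of 1712 long noncoding genes. No gene annotated within NEAT1 held a count, and TALAM1, on the strand opposite MALAT1, held 0.246% as many counts as MALAT1.

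Among the neighbours of the pair, FRMD8, a gene for a partner of the iRhom proteins 9249 bases before NEAT1, had a change of 0.16 (SE 0.0732, edgeR, adjusted p = 0.0696).

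Paraspeckle proteins, which assemble on NEAT1, were listed at 33 genes, of which 31 were tested. Of these 20 were higher, 5 were lower and 6 were not called, with a median log2 fold change of 0.26. The share called was 80.6%, against 54.8% of all genes tested. The largest rises were RBM14, from 4.38 ± 0.181 to 7.57 ± 0.0529 FPKM, HNRNPH1, from 54.8 ± 5.86 to 90.6 ± 2.72 FPKM, and TARDBP, from 25.8 ± 0.257 to 40.6 ± 1.47 FPKM (SD, n = 3 each). SMARCA4, a chromatin remodelling ATPase, followed at 0.63 on the log2 scale. The core proteins SFPQ and NONO, named after their values were seen, rose by 0.35 and 0.28. Falls were led by CIRBP, a cold-inducible RNA-binding protein, at -0.41, then RBM7 at -0.30, HNRNPK at -0.18 and ZNF24 at -0.15.

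Genes of nuclear speckles and of the enzymes that form or modify the MALAT1 3′ end numbered 26, all of them tested. Of these 14 were higher, 4 were lower and 8 were not called, with a median of 0.15. The share called was 69.2%, against 54.8% of all genes tested. METTL3, the catalytic subunit of the m6A methyltransferase, rose from 5.05 ± 0.480 to 10.9 ± 0.726 FPKM (SD, n = 3 each), while its partner METTL14 fell by 0.15 on the log2 scale. POP1, a subunit of RNase P, rose from 6.28 ± 0.106 to 11.8 ± 0.394 FPKM (SD, n = 3 each). ELAC2, the RNase Z that cuts the other side of the tRNA-like piece released from MALAT1, rose by 0.71, and the splicing factor SRSF2 by 0.63. The other RNase P or MRP subunits on the list were mixed. RPP14, RPP25 and RPP40 fell by 0.59, 0.38 and 0.23. RPP25L, RPP30 and POP4, named after their values were seen, rose by 0.47, 0.18 and 0.18, and POP5, POP7, RPP21 and RPP38 were not called.

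**Figure D3:**
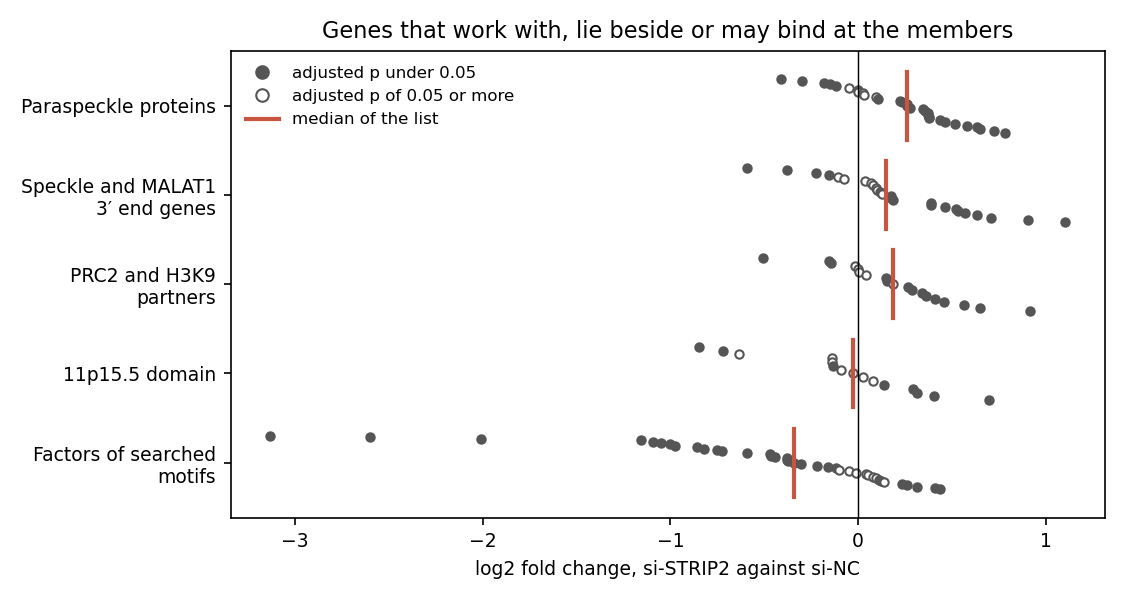
Log2 fold change (si-STRIP2 against si-NC) of each tested gene in 5 lists of genes that work with the members, lie beside them or bind the searched motifs, with filled points for an adjusted p under 0.05 and a red line at the list median. Medians run from -0.34 for the motif factors to 0.26 for the paraspeckle proteins, and every list has called genes on both sides of 0.

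PVT1 (ENSG00000249859) is a long gene downstream of MYC that is often amplified with it in tumours. It runs on the plus strand of chromosome 8 from 127794526 to 128187101. PVT1 stood at 1.58, 1.63 and 1.62 FPKM in si-NC and at 1.92, 1.64 and 1.73 FPKM in si-STRIP2. The lowest knockdown library was barely above the highest control. The means were 1.61 ± 0.0265 and 1.76 ± 0.143 FPKM (SD, n = 3 each), and the log2 fold change was 0.13 (SE 0.0565, edgeR, adjusted p = 0.0488). The call was kept in 1 of the 14 alternatives, the fit without si-STRIP2 2 (edgeR, adjusted p = 0.0170), and the adjusted p reached 0.335 without si-STRIP2 1. MYC, 51575 bases away, was well above PVT1 at 62.9 ± 1.16 FPKM in si-NC and fell to 54.2 ± 0.578 FPKM (SD, n = 3 each), a log2 fold change of -0.22 (SE 0.0387, edgeR, adjusted p = 1.29e-05). Genes that overlap PVT1 held 0.852% as many counts as PVT1, and GSDMC, its next protein-coding gene on the other side, held at most 3 counts in a library.

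H19 and KCNQ1OT1 belong to the imprinted domain on the short arm of chromosome 11. H19 (ENSG00000130600) is expressed from the maternal copy, carries the microRNA miR-675 and is abundant in fetal tissue. It lies on the minus strand at 1995166 to 2001470. It had 8, 10 and 4 counts in si-NC and 13, 5 and 7 in si-STRIP2, or 22 against 25 in all. The libraries of the groups were interleaved, from 0.08 to 0.20 FPKM and from 0.10 to 0.24 FPKM. In a fit with no filter the log2 fold change was 0.24 (SE 0.479, edgeR, adjusted p = 0.771), so that a change was not detectable at this depth. MRPL23, a mitochondrial ribosomal protein gene 10644 bases away on the opposite strand, rose from 3.95 ± 0.786 to 6.36 ± 0.720 FPKM (SD, n = 3 each, edgeR, adjusted p = 7.25e-07). IGF2, the growth factor gene that shares its enhancers with H19, had a log2 fold change of -0.092 (SE 0.141, edgeR, adjusted p = 0.603).

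KCNQ1OT1 (ENSG00000269821) is transcribed from the paternal copy, antisense within KCNQ1, and is known for silencing its neighbours in cis. Its single annotated exon of 91667 bases lies on the minus strand at 2608328 to 2699994. It had 34, 33 and 31 counts in si-NC and 59, 45 and 37 in si-STRIP2, which is 0.0200 to 0.0300 FPKM. The si-STRIP2 libraries were all higher, in counts and after division by the library totals. The log2 fold change was 0.59 (SE 0.213, 95% interval 0.17 to 1.00, edgeR, adjusted p = 0.0200). The call was lost without si-NC 1 (edgeR, adjusted p = 0.0949) and without si-STRIP2 1 (edgeR, adjusted p = 0.130), with DESeq2 (adjusted p = 0.0819), and in both limma fits of FPKM (adjusted p = 0.826 and 0.676).

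KCNQ1, a potassium channel gene on the opposite strand around KCNQ1OT1, held 257% as many counts as KCNQ1OT1. It had 167, 114 and 121 counts in si-NC and 68, 68 and 76 in si-STRIP2, a log2 fold change of -0.85 (SE 0.139, edgeR, adjusted p = 3.38e-06). The library kit keeps strand, but whether the counting used it is not given in the sources used here. If it did not, reads from the pair could not be told apart where they overlap. CDKN1C, the cell-cycle inhibitor that the domain also silences, had a log2 fold change of 0.026 (SE 0.142, edgeR, adjusted p = 0.890).

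A list of genes of this domain, with the IGF2 mRNA-binding proteins and CTCF, which sets its insulation, held 21 names and 15 tested genes. Of these 5 were higher, 3 were lower and 7 were not called, with a median of -0.029. The share called, 53.3%, was close to the 54.8% of all genes tested. Beside MRPL23 and KCNQ1, IGF2BP3 rose by 0.41 on the log2 scale, NAP1L4 by 0.32 and CARS1 by 0.29, and CTCF fell by 0.13.

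Several members are known to bind the Polycomb complex PRC2 or the H3K9 methyltransferase EHMT2. Of 19 genes listed for these partners, all tested, 11 were higher, 3 were lower and 5 were not called, with a median of 0.19. The share called was 73.7%, against 54.8% of all genes tested. EHMT2 rose from 5.35 ± 0.151 to 10.1 ± 0.0404 FPKM (SD, n = 3 each), and its partner EHMT1 rose by 0.46 on the log2 scale. CBX2, a Polycomb reader of methylated histone H3, rose by 0.65, and the DNA methyltransferase DNMT1 by 0.57. SUZ12, a core subunit of PRC2, fell by 0.16 and RCOR1, a partner of the demethylase KDM1A, by 0.15. EZH2, the methyltransferase of PRC2, named after its values were seen, had a change of -0.018 (SE 0.0405, edgeR, adjusted p = 0.730).

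**Figure D4:**
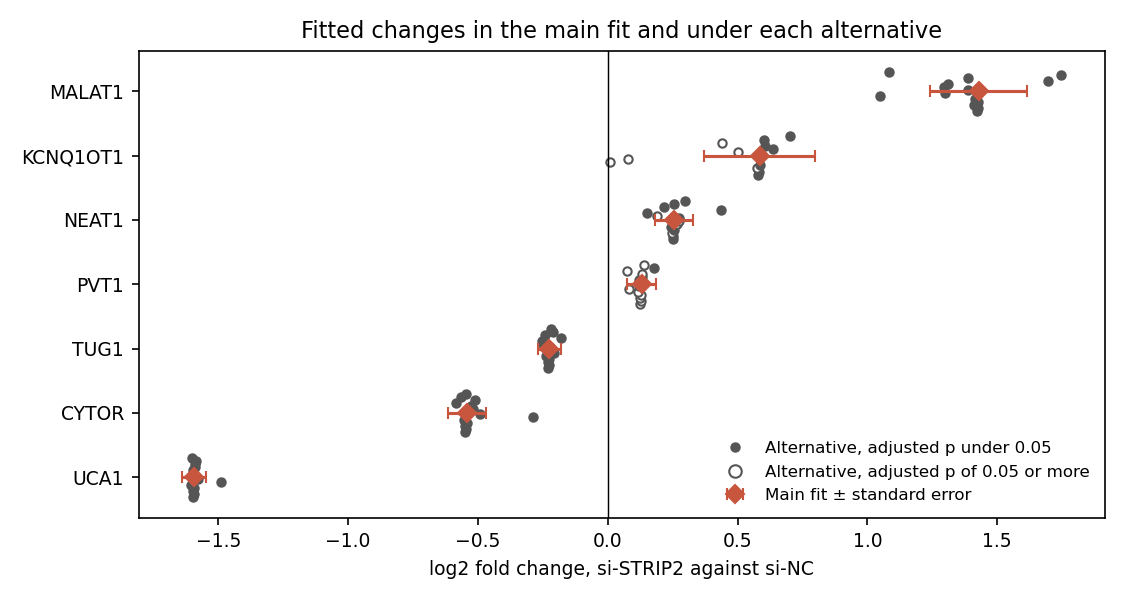
Log2 fold change of each tested member in the main edgeR fit (red diamonds, bars 1 standard error) and in each alternative fit (points, filled where the adjusted p was under 0.05). The points of UCA1, CYTOR, TUG1 and MALAT1 are all filled, and 1 of the 14 points of PVT1 is filled.

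A wider list of 69 names of long noncoding RNAs from cancer work included LINC00152, the other name of CYTOR, which had no row under that symbol. The list had 67 rows in the table and 44 tested genes. Of these 21 were lower, 5 were higher and 18 were not called. The share called was 59.1%, against 54.8% of all genes tested and 35.5% of long noncoding genes. The median of the list was -0.31 against 0.026 over all 1712 long noncoding genes, which divided into 304 lower and 303 higher. The largest falls among those at 1 FPKM or more were MIR22HG, the host of miR-22, from 1.71 ± 0.229 to 0.543 ± 0.0551 FPKM, and HCP5, a transcript of the HLA region, from 1.28 ± 0.0624 to 0.543 ± 0.0603 FPKM (SD, n = 3 each). LINC00963 fell by 1.21 and LINC00973 by 1.08 on the log2 scale. FOXD2-AS1, FEZF1-AS1 and LINC01234 rose by 0.93, 0.58 and 0.24. NORAD, an RNA that binds Pumilio proteins, was named after its values were seen as the most abundant of the list, and fell from 140.9 ± 4.47 to 112.2 ± 3.49 FPKM (SD, n = 3 each). With a minimum of 1 FPKM, 25 genes of the list were tested and 16 called, in a fit that called 7626 of 12612 genes. Of the 67 rows, 14 had at most 3 counts in every library.

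**Figure D5:**
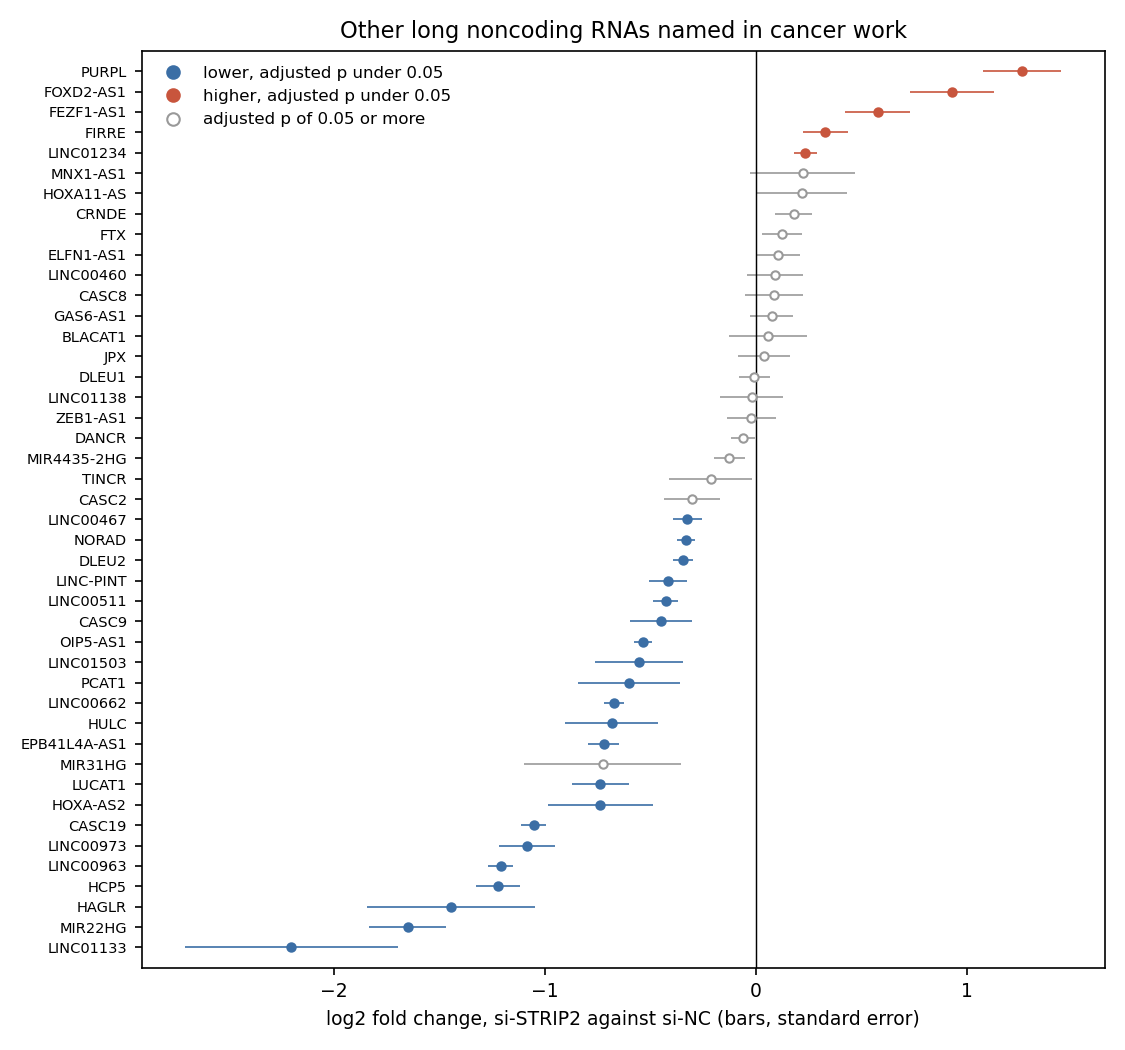
Log2 fold change (si-STRIP2 against si-NC, bars 1 standard error) of the 44 tested genes of the wider list of long noncoding RNAs, with blue points for those called lower, red for those called higher and open points for those not called. Called genes lie on both sides, 21 lower and 5 higher.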

How the data were processed

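The table held 6 libraries of HCT116 cells. The deposited raw count per gene and the deposited FPKM are the authors' values, per the file headers. The submitters' processing notes name bcl2fastq 2.20.0.422, FastQC 0.10.1, cutadapt 1.9.1, HISAT2 2.2.1, HTSeq 0.6.1 and GRCh38.p13. Neither the annotation release nor the strand setting of the counter is given in the sources used here. Counts were tested in R 4.3.3 with edgeR 4.0.16 (filterByExpr with a minimum count of 10, TMM scaling, quasi-likelihood F test, 2-sided), adjusted by the Benjamini-Hochberg procedure over 15687 genes. Adjusted p-values are from this fit unless another tool is named. Alternatives used RLE or upper quartile scaling, DESeq2 1.42.0, limma 3.58.1 on log2(FPKM + 1) and log2(FPKM + 0.1), no filter, a mean of at least 1 FPKM, a replicate block, and each library left out. In a simulation of 3 against 3 libraries over 15687 genes, 200 genes were given 2-fold or 4-fold changes. The edgeR fit recovered 89.0% of 2-fold and 95.0% of 4-fold changes, and 6.60% of its calls were false. The real fit called 8599 genes, many with smaller changes, so these rates do not carry over to it.

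The members and gene lists were chosen with earlier results of these data known. Named genes were the members, STRIP2, LCN2, the nearest protein-coding genes, overlapping genes with over 10% of a member's counts, the 5 profiles nearest UCA1, and up to 4 called falls and 4 called rises per list at a mean of at least 1 FPKM. Some items that this rule covers are not reported here. Gene coordinates are those of the table. Sequences are from GENCODE 29 and RefSeq promoter windows (GRCh38.p14).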

Additional observations from a re-analysis of the deposited data

How the results depend on the processing

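UCA1, TUG1, CYTOR and MALAT1 kept their direction and call in all 14 alternatives. The number of members called, 7 in all, was 4 with DESeq2, 4 with limma on log2(FPKM + 1) and 4 with limma on log2(FPKM + 0.1), and ran from 4 (without si-NC replicate 1) to 7 when libraries were left out. NEAT1, PVT1 and KCNQ1OT1 were the members that lost calls, and the cause was not tested. KCNQ1OT1 could not be fitted at a mean of at least 1 FPKM, and H19 was fitted without a filter and in 4 of the fits that left a library out. Of the wider list, 26 of 44 tested genes were called, and 24 to 27 with a library left out. At a mean of at least 1 FPKM, where fewer genes were tested, 16 of 25 were called, and 7626 of 12612 genes in all. No direction of a member was reversed. Replicate numbers did not pair the libraries: same-numbered deviations correlated at -0.082, -0.017 and -0.066. With the replicate block, 6 members and 27 genes of the wider list were called, and 8293 genes in all against 8599. Depth limits H19 and KCNQ1OT1 most, with at most 13 and 59 counts in a library.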
